A study of Mus musculus with 6 samples.

Results

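White adipocyte genes, 10 of the 54146 gene IDs in the deposited files, were followed in mouse skin after chronic restraint stress. The members were taken from a list by symbol: the hormone genes Adipoq, Lep and Retn, the lipid droplet genes Plin1 and Cidec, the lipase gene Lipe, the fatty acid carrier gene Fabp4, the glucose transporter gene Slc2a4, the carbonic anhydrase gene Car3 and the transcription factor gene Pparg. The rule that picks them uses no measured value, but the list was drawn up with earlier results of these data known. RNA from the skin of 6 mice was sequenced, 3 under chronic restraint stress for 12 weeks (CRS) and 3 controls (CON). Not given in the sources used here were the strain, sex, age, body site and depth of the skin taken. The study's title concerns pigment production under psychological stress, and the comparison made here asks which of these fat cell transcripts differed between the groups.

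White adipocytes store triglyceride in a single large lipid droplet, take up glucose and fatty acids under insulin, and release fatty acids by lipolysis when adrenergic signals arrive. In mouse skin they form the dermal white adipose layer beneath the reticular dermis, which thickens and thins with the hair cycle. They also act as endocrine cells through adiponectin, leptin and, in mice, resistin.

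Every member was detected in every library, so the skin sampled held adipocyte RNA in all 6 mice. The CRS and CON groups overlapped in all 10 members. Of the 28389 genes tested, 1.65% did not overlap with CRS higher and 5.19% with CRS lower. The overlap therefore does not set the members apart, and it does not exclude a difference. The members differed among themselves in how they ordered the libraries. Adipoq and Cidec were lowest in CRS replicate 1, Fabp4 and Retn were lowest in CRS replicate 2, and Slc2a4 ordered the libraries exactly as skeletal muscle genes did. In bulk tissue, fewer adipocytes and less RNA per adipocyte cannot be told apart.

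Libraries held 13.3 to 25.7 M fragments, recovered from the FPKM steps (FPKM scale the fragments of a gene by its exon length and by the depth of the library). CON replicate 1 stood apart. The summed FPKM of 18 skeletal muscle genes was 15960 there and 524 to 3371 in the other libraries, mitochondrially encoded genes took 15.3% of its fragments against 2.50% to 4.19%, and Xist was at 2.80 FPKM against 0.0221 to 0.168 although the Y-linked gene Ddx3y was present in all 6. Each library was taken as 1 mouse from the labels, and whether CON replicate 1 holds RNA of more than 1 was not tested. Without it 5 members were above 0 and 5 under, and 0 passed the adjusted threshold. CRS replicate 2 stood apart by transcript length, as given below with the members it touches.

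Promoter sequences of the 2 hormone genes that follow are shown because the C/EBP family and PPARG are the textbook activators of adipocyte genes, and because the C/EBP genes are described further on. Both are from RefSeq (GRCm38.p6, plus strand), run from 250 bases before to 50 bases after the transcript start, and have in capitals the motifs found on either strand. RefSeq promoters matched 7 of the 10 members. The Lep window is chr6:29059971-29060270 and the Adipoq window chr16:23146286-23146585.
Lep: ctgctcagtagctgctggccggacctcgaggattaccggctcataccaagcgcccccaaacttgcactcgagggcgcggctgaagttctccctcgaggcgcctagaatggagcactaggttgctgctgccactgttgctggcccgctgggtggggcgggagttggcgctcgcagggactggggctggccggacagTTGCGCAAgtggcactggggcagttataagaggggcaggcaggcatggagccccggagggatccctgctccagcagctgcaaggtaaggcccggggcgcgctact
Adipoq: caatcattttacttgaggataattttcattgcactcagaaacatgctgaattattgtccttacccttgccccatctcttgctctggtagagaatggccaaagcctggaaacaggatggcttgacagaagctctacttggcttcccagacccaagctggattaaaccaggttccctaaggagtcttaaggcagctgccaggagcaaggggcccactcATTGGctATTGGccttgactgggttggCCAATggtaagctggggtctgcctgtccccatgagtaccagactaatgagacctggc
The capitals in Lep mark the palindrome TTGCGCAA, a C/EBP site of full symmetry, which begins 55 bases before the start. It occurred in 60 of 32851 RefSeq promoters of this length (0.183%), and among the members' windows only in that of Lep. The capitals in Adipoq mark CCAAT or its reverse complement ATTGG, beginning 34, 27 and 7 bases before the start, a pentamer present in 37.4% of promoters. This CCAAT box was searched as a motif separate from the C/EBP palindrome and is not marked as a C/EBP site. The nuclear receptor half-site AGGTCA, in 16.3% of promoters, and TATAAA, in 13.6%, were searched on both strands and matched neither window. None of the 4 motifs overlapped another in these windows. A match describes the letters and is no evidence of binding.

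Of the hormone genes, Adipoq encodes adiponectin, a hormone made almost only by adipocytes. It stood at 46.0, 80.1 and 31.8 FPKM in CON replicates 1 to 3 and at 19.7, 55.8 and 75.2 FPKM in the CRS replicates. CRS replicate 1 was the lowest library and CON replicate 2 the highest, so the groups overlapped. Group means were 52.6 ± 24.8 FPKM for CON against 50.2 ± 28.2 FPKM for CRS (SD, n = 3). The log2 fold change of CRS against CON was -0.17 (SE 0.55, 95% interval -1.43 to 1.10, limma adjusted p = 0.9999). Lep encodes leptin, which reports fat mass to the hypothalamus. It stood at 5.57, 5.25 and 3.28 FPKM in the CON mice and 1.38, 8.36 and 4.20 FPKM in the CRS mice, on 89 to 721 fragments. The CRS mice held both the lowest and the highest value, and the log2 fold change was -0.31 (SE 0.61, interval -1.70 to 1.08). Retn encodes resistin, which mouse adipocytes secrete. Its values were 30.9, 44.4 and 35.5 FPKM in the CON mice and 46.7, 19.0 and 76.2 FPKM in the CRS mice. Here CRS replicate 2, which held the most Lep, had the least, and the log2 fold change was 0.16 (SE 0.49, interval -0.97 to 1.29).

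Plin1 encodes perilipin 1, the coat protein that gates lipase access to the droplet. It was at 5.19, 6.36 and 3.19 FPKM in the CON mice and 1.24, 13.4 and 3.64 FPKM in the CRS mice, a 10.8-fold span between libraries. Both extremes were CRS mice, and the log2 fold change was -0.24 (SE 0.75, interval -1.96 to 1.47). Cidec encodes the protein that fuses droplets into a single one. It was at 27.8, 45.4 and 24.4 FPKM in the CON mice and 19.1, 42.2 and 53.3 FPKM in the CRS mice, with a log2 fold change of 0.16 (SE 0.45, interval -0.86 to 1.18). It ordered the libraries much as Adipoq did, with CON replicate 2 and CRS replicate 3 in the top places and CON replicate 3 and CRS replicate 1 at the bottom. Lipe encodes hormone-sensitive lipase, which cleaves diacylglycerol during lipolysis. It was at 6.96, 9.66 and 7.66 FPKM in the CON mice and 5.58, 17.2 and 7.81 FPKM in the CRS mice. The CRS replicate 2 value stood above all others and the remaining 5 lay close together, and the log2 fold change was 0.18 (SE 0.43, interval -0.81 to 1.17). Of its exon length, 15.6% is shared with an antisense gene, and whether the counting used strand is not stated in the labels.

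Fabp4 encodes the fatty acid carrier of fat cells, which capillary endothelium and macrophages also make. It was at 154.8, 266.3 and 168.5 FPKM in the CON mice and 221.6, 152.8 and 367.8 FPKM in the CRS mice. Its highest and lowest libraries were both CRS mice, and the log2 fold change was 0.28 (SE 0.45, interval -0.76 to 1.32). Pparg encodes the nuclear receptor that drives fat cell formation and is also active in sebocytes. It was at 5.36, 5.08 and 2.34 FPKM in the CON mice and 3.15, 4.95 and 4.55 FPKM in the CRS mice, on 92 to 376 fragments. Its log2 fold change was 0.049 (SE 0.42, interval -0.90 to 1.00), and its 2.29-fold span between libraries was the narrowest of the members. Its long and short isoforms were counted together.

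Slc2a4 encodes GLUT4, the insulin-responsive glucose transporter of fat and muscle. It was at 16.7, 3.12 and 5.13 FPKM in the CON mice and 1.52, 7.93 and 2.76 FPKM in the CRS mice. CON replicate 1 stood far above the rest, and the log2 fold change was -0.97 (SE 0.73, interval -2.65 to 0.70). Car3 encodes carbonic anhydrase 3, abundant in fat cells and in slow muscle fibres. It was at 496.4, 196.5 and 140.7 FPKM in the CON mice and 56.4, 252.8 and 162.4 FPKM in the CRS mice. Again CON replicate 1 was highest and CRS replicate 1 lowest, and the log2 fold change was -0.86 (SE 0.67, interval -2.37 to 0.66).

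**Figure D1:**
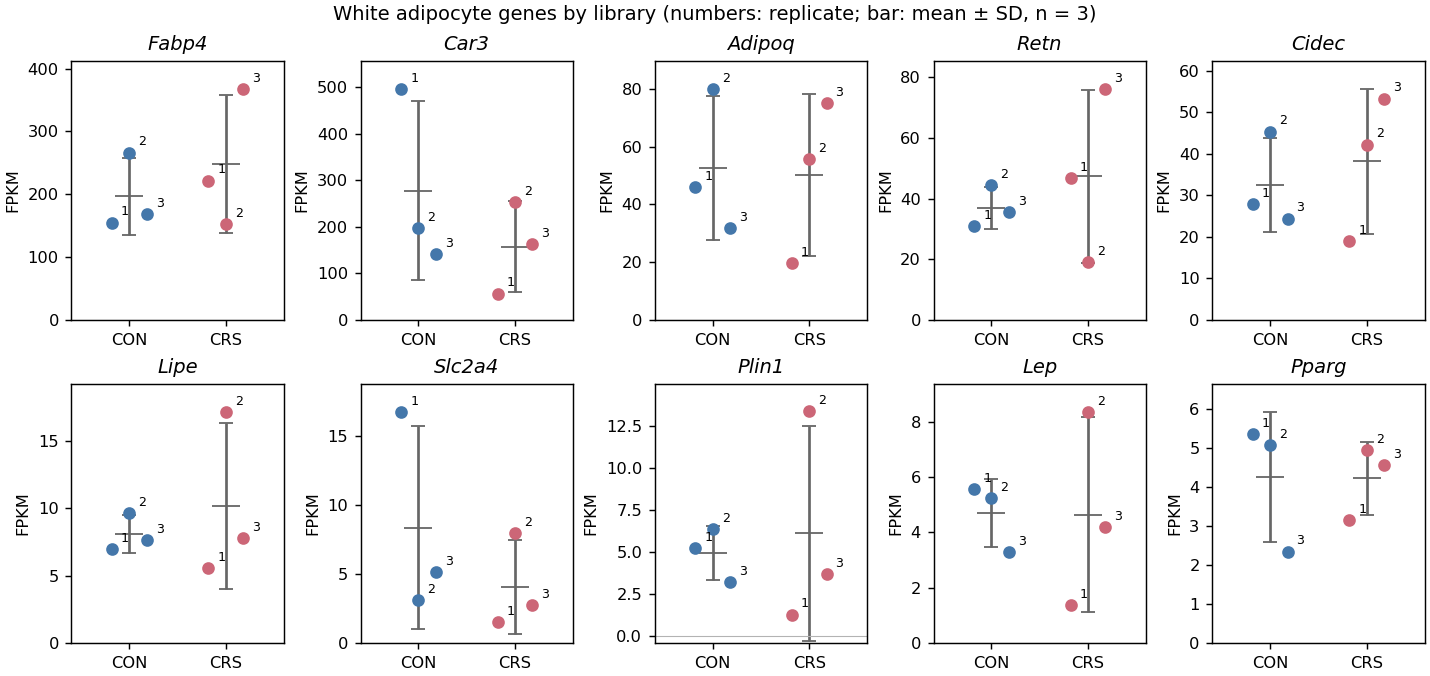
FPKM (linear axis) of each of the 10 white adipocyte genes in the 6 libraries. Points are libraries numbered by replicate, and bars are the mean ± SD of 3 mice. The groups overlap in every panel. CRS replicate 1 is the lowest point in 7 panels, while CRS replicate 2 is highest for Lipe, Plin1 and Lep and lowest for Fabp4 and Retn.

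Among the 28389 genes whose mean reached 0.1 FPKM, 0 of the 10 members passed an adjusted p of 0.05 with limma, where 0% of all genes did so. At an unadjusted p under 0.05 the members also numbered 0, against 0.919% of all genes with CRS higher and 1.63% with CRS lower. The smallest unadjusted p among them was 0.220, for Slc2a4, and limma voom on recovered fragments called 0 members and 0 genes, the members' smallest unadjusted p being 0.183. The all-gene counts behind these shares, 261 and 462, depended on single libraries. They were 707 and 4148 without CRS replicate 2, 158 and 1005 without CRS replicate 1, 183 and 189 without CRS replicate 3, 160 and 181 without CON replicate 1, and 178 and 227 without CON replicate 3. In each of these fits the members at an unadjusted p under 0.05 still numbered 0, the smallest p being 0.0515 (Retn, without CRS replicate 2). Non-overlapping groups were found in 0 members, against 1.65% of genes with CRS higher and 5.19% with CRS lower. With 3 mice a group a two-sided exact permutation p cannot fall under 0.1, and for the members it ran from 0.4 to 1. Of the members 5 had a log2 fold change above 0 and 5 under 0, with a median of -0.060, where all genes had a median of -0.20. After length centring or median-ratio scaling, both described further on, 6 members were above 0 and their median turned to 0.18 or 0.16. The 95% intervals reached 1 log2 unit or more in at least 1 direction for all 10, so these data do not exclude a difference of that size in that direction. With each library taken as 1 mouse, the spread behind the p-values holds differences between mice and between libraries together. In limma that spread is also partly drawn from other genes of like level.

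**Figure D2:**
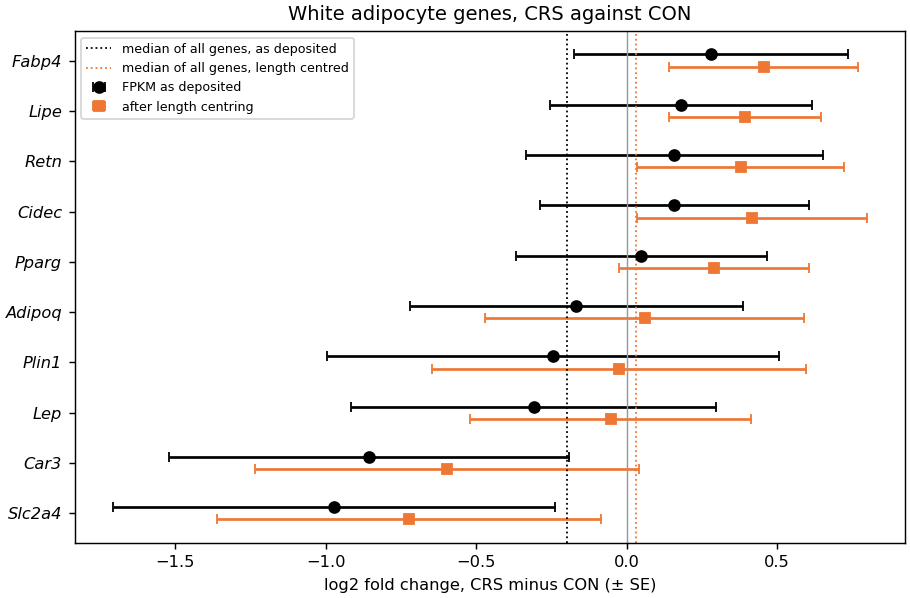
Log2 fold change of CRS against CON (± SE) for each member, from FPKM as deposited (black circles) and after length centring (orange squares), with dotted lines at the median of all genes. Slc2a4 at -0.97 and Car3 at -0.86 lie farthest from 0, and the black values of the other 8 members lie between -0.31 and 0.28.

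Levels between members can be compared only per length. On the FPKM scale the means over 6 libraries ran from 222 for Fabp4 and 217.5 for Car3 through 51.4 for Adipoq, 42.1 for Retn and 35.4 for Cidec to 9.14 for Lipe, 6.199 for Slc2a4, 5.50 for Plin1, 4.67 for Lep and 4.24 for Pparg. Car3 lay above Adipoq, and Cidec above Lipe, in all 6 libraries. The other neighbours in this order traded places, each lying above the next in 2 to 5 of 6 libraries. The merged exons of Fabp4 span 4489 nt and its principal transcript 896 nt, so FPKM understates its level per transcript. Scaled to the principal transcript, Fabp4 averaged 1112 and Car3 371.2, with Fabp4 above Car3 in 5 of 6 libraries, and Lep moved to the last place at 4.81.

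The CRS libraries deviated with transcript length. Over genes of at least 1 FPKM, the median deviation of log2(FPKM + 0.1) from each gene's mean over the libraries ran in CRS replicate 2 from -0.89 for transcripts up to 1000 nt to 0.88 above 6000 nt. It ran the other way in CRS replicate 1 (0.43 to -0.46) and in CRS replicate 3 (0.41 to -0.73), and stayed between -0.15 and 0.28 in the CON libraries. Some members deviated with it and others did not. In CRS replicate 2 the shortest members, Fabp4 (896 nt) and Retn (1139 nt), deviated by -0.46 and -1.02, and the members Plin1 (2817 nt), Lep (3259 nt) and Lipe (3613 nt) by 1.604, 1.01 and 0.999. In CRS replicate 3 the same Fabp4 and Retn deviated by 0.81 and 0.98. In CRS replicate 1 Retn and Fabp4 were at 0.27 and 0.075, and Plin1 and Lep at -1.72 and -1.51. Against the trend, the short Adipoq (1292 nt) was at -1.23 in CRS replicate 1 and 0.27 in CRS replicate 2. Car3 (1679 nt) was at -1.66 and 0.51 in the same libraries, farther from 0 than the medians of its length class, -0.25 and 0.015. The longest member, Lipe, went with the trend in CRS replicate 1, at -0.60 where its length class had a median of -0.42.

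**Figure D3:**
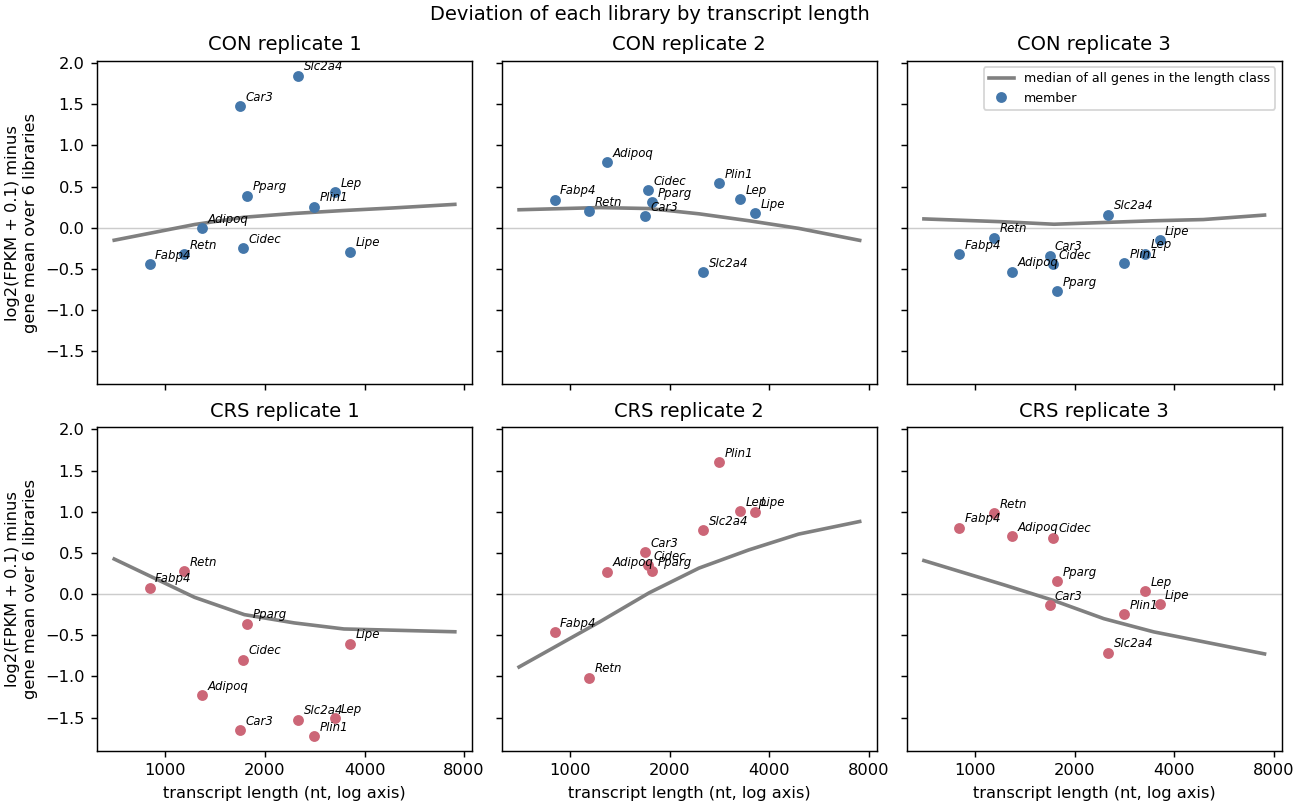
Deviation of log2(FPKM + 0.1) from each gene's mean over 6 libraries (vertical axis) against the length of the principal transcript (log axis), 1 panel per library. Grey lines are medians of all genes of at least 1 FPKM in 7 length classes, and points are the 10 members. In CRS replicate 2 the line rises from -0.89 to 0.88, and in CRS replicates 1 and 3 it falls. Adipoq lies far below the line in CRS replicate 1 and above it in CRS replicates 2 and 3.

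When the median of genes of like length was subtracted in each library, an alternative chosen after the data were seen, the members still differed. Relative to genes of their own length, CRS replicate 1 was still low for Car3 (-1.44), Plin1 (-1.38), Slc2a4 (-1.14), Adipoq (-1.14), Lep (-1.10) and Cidec (-0.58), while Fabp4 was at -0.21, Lipe at -0.18, Pparg at -0.093 and Retn at 0.24. CRS replicate 2 was above its genes' means for 9 of the members, Retn at -0.52 being the exception. CRS replicate 3 was above for 8, the exceptions being Slc2a4 at -0.38 and Car3 at -0.049. The median over the 10 members was -0.84, 0.44 and 0.42 in CRS replicates 1 to 3 and 0.015, 0.13 and -0.41 in the CON replicates. Stressed mice therefore lay on both sides of the controls. The log2 fold changes shifted upward with this centring, to 0.46 (SE 0.31) for Fabp4, 0.42 (SE 0.38) for Cidec and 0.39 (SE 0.25) for Lipe, with 0 members passing. The median of all genes moved from -0.20 to 0.032, and Adipoq changed sign to 0.061. Median-ratio scaling likewise moved the median of all genes to -0.0084 and turned Adipoq to 0.050. How far transcript length or the separate libraries bear on these values was not tested further.

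Slc2a4 and, less closely, Car3, the members that skeletal muscle also makes, ordered the libraries as muscle genes did. From high to low, the summed FPKM of 18 skeletal muscle genes ordered the libraries as CON replicate 1 (15960), CRS replicate 2 (3371), CON replicate 3 (3047), CON replicate 2 (1749), CRS replicate 3 (944.7) and CRS replicate 1 (524.4). Slc2a4 had the same order in all 6 places and Car3 in 3, against 0 or 1 for each of the other 8 members. All 18 muscle genes had a log2 fold change under 0, with a median of -1.85, and 17 of them after length centring or median-ratio scaling. With the mean muscle level as a covariate the value was 0.18 (SE 0.34) for Slc2a4 and 0.0035 (SE 0.48) for Car3. Such shifts were not limited to them, since the covariate also moved Plin1 from -0.24 to 0.56 (SE 0.67), Lep from -0.31 to 0.33 (SE 0.55) and Retn from 0.16 to -0.38 (SE 0.42). Without CON replicate 1 it was -0.29 for Slc2a4 and -0.33 for Car3.

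**Figure D4:**
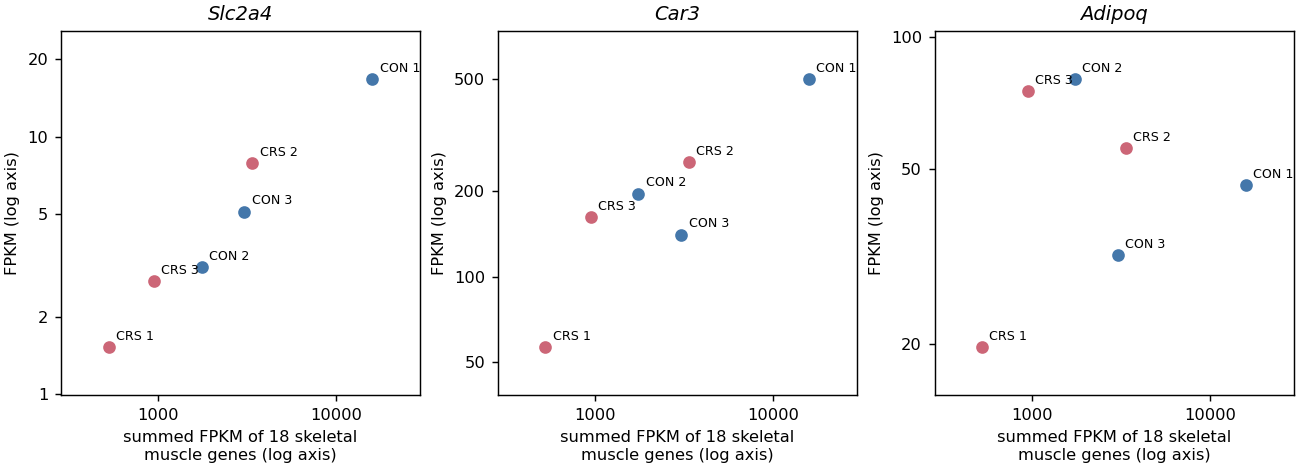
FPKM of Slc2a4, Car3 and Adipoq (log axis) against the summed FPKM of 18 skeletal muscle genes (log axis) in each of the 6 libraries, CON in blue and CRS in red. Slc2a4 rises with the muscle sum through all 6 libraries, and Adipoq does not, being highest in CON replicate 2 and CRS replicate 3.

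To describe each gene at a like amount of adipocyte RNA, the other 7 members were set against the mean log2 level of Adipoq, Plin1 and Cidec in the same library. These log2 ratios overlapped between the groups for all 7, and the exact permutation p ran from 0.3 to 0.9, with 0.9 for each after adjustment over the 7. Lep was the steadiest, at -1.74, -2.42 and -2.02 in CON and -2.43, -1.91 and -2.52 in CRS. Leptin RNA relative to the mean of these 3 genes thus varied by less than 1 log2 unit among all 6 mice. Plin1, part of that reference, was high in CRS replicate 2 together with Lep (deviations of 1.604 and 1.01). Retn varied most, at 0.71, 0.64 and 1.38 in CON and 2.55, -0.73 and 1.63 in CRS. Slc2a4 came next, from -0.17 in CON replicate 1 to -3.16 in CON replicate 2. Fabp4 followed, with 4.80 in CRS replicate 1 and 2.27 in CRS replicate 2 around CON values of 3.03 to 3.62. Length centring moved the difference between the groups from 0.37 to 0.30 for Fabp4 and from 0.24 to 0.23 for Retn.

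Other genes of the fat cell were read from 9 lists chosen with earlier results of these data known. Across the genome 9132 of the tested genes were above 0 and 19257 under 0 on the log2 fold change scale, against 15037 and 13352 after length centring and 13965 and 14424 after median-ratio scaling, and 0 genes of any list passed the adjusted threshold. The groups did not overlap in 1.65% of tested genes with CRS higher and in 5.19% with CRS lower. Among the genes of these lists named below, Abhd5, Dgat1 and Adipor2 were higher in CRS without overlap. Retnla, Cebpb and Cd24a were lower in CRS without overlap. Lipid droplet proteins had 7 of 9 above 0 (median 0.35). Cidea, a droplet protein of brown fat and sebocytes, was 22.1 ± 11.1 FPKM in the CON mice and 40.2 ± 18.4 in CRS, while the general droplet coats Plin2 and Plin3 had log2 fold changes of 0.40 and -0.52. Lipolysis genes had 7 of 10 above 0 (median 0.080). Their member Abhd5, the coactivator of the triglyceride lipase that skin also needs for its barrier, was the only gene of that list without overlap: 6.04, 11.1 and 8.92 FPKM in the CON mice and 14.2, 15.3 and 13.7 FPKM in the CRS mice. Its log2 fold change was 0.77 (SE 0.32, unadjusted p = 0.0420 and adjusted p = 0.9999 with limma). Adrb3, the adrenergic receptor that starts lipolysis in mouse fat cells, was at -0.46 (SE 0.56) and the kinase subunit gene Prkar2b at -0.45 (SE 0.42).

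Fatty acid uptake and triglyceride synthesis had 7 of 13 above 0 (median 0.041), with Lpl, the lipase of capillary walls, at -0.32, the phosphatidate phosphatase gene Lpin1 at -0.66 and the acyltransferase gene Dgat1 at 0.34. Fatty acid synthesis had 7 of 12 above 0 (median 0.013). Its Scd1, the stearoyl-CoA desaturase that sebocytes also make, was 208.5 ± 40.9 FPKM in the CON mice and 352.0 ± 201.3 in CRS, Me1, which supplies NADPH, was at 0.35, and Thrsp, a lipogenic regulator, at -0.61. Insulin and adipokine signalling had 3 of 15 above 0 (median -0.18), but 9 after length centring (median 0.035) and 10 after median-ratio scaling (median 0.031). There the adiponectin receptor gene Adipor2 did not overlap, at 17.2, 21.2 and 19.6 FPKM in the CON mice and 23.6, 29.9 and 24.4 FPKM in the CRS mice (log2 fold change 0.42, SE 0.28), while the basal glucose transporter gene Slc2a1 and the caveolar coat gene Cavin1 were at -0.49 and -0.39. Other adipokines had 2 of 10 above 0 (median -0.36), with Retnla, a resistin-like gene of macrophages and fat, at -0.61 and the chemerin gene Rarres2 at 0.84.

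Adipogenic transcription factors had 0 of 11 above 0, with a median of -0.35 where all genes had -0.20. Cebpb, an early factor of adipogenesis that keratinocytes and immune cells also express, was at 23.5, 12.6 and 42.2 FPKM in the CON mice and 12.1, 4.83 and 10.9 FPKM in the CRS mice. No CRS mouse reached the lowest control, but CRS replicate 1 and CON replicate 2 were close. Its log2 fold change was -1.42 (SE 0.52, unadjusted p = 0.0244 and adjusted p = 0.9999 with limma). Cebpd was at -0.86 (SE 0.44) and Ebf1, a factor of fat and B cells, at -0.75 (SE 0.46). After length centring 3 of the 11 factors were above 0 and their median was -0.10, that of all genes being 0.032.

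Adipocyte progenitor genes had 6 of 9 tested above 0 (median 0.14), Dlk1 being listed at 0 in all 6 libraries, with Pi16 at 0.93, Cd24a at -0.65 and Anxa3 at -0.27. Thermogenic genes had 3 of 9 above 0 (median -0.16), but 6 after length centring (median 0.094) and 6 after median-ratio scaling (median 0.067). Ucp1, the uncoupling protein that defines brown and beige fat, stood at only 0.10 to 1.53 FPKM. Cox7a1 and Cox8b, which muscle also expresses, were at -1.38 and -1.31 and had their highest values, 85.0 and 181.7 FPKM, in CON replicate 1. Elovl3, which sebocytes also express, was at 0.82.

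Markers of other cells that make some members were read beside them. All 9 endothelial genes were detected in every library, with 8 of 9 under 0 (median -0.79) and a summed level of 19.6 to 52.2 FPKM in the CON mice and 10.8 to 37.0 in CRS. All 10 macrophage genes were above 0 (median 0.25), with sums of 161.4 to 475.9 and 295.7 to 423.1 FPKM. Sebaceous gland genes had 7 of 8 above 0 (median 0.97), with sums of 52.8 to 103.1 FPKM in the CON mice and 129.2 to 178.4 in CRS that did not overlap. Dermal fibroblast genes had 7 of 8 above 0 (sums 289.2 to 1429 and 916.1 to 1341 FPKM). Epidermal genes had 6 of 7 above 0, with sums of 1911 to 2157 and 2202 to 2937 FPKM that did not overlap either. Only 1 of these 7 genes was itself without overlap, Krt14, the gene of highest level (log2 fold change 0.33, SE 0.50). Krt5, the next in level, overlapped (0.084, SE 0.54). Of all tested genes 1.65% did not overlap with CRS higher. CON replicate 1 held the highest endothelial sum, 52.2 FPKM, with CON replicates 2 and 3 at 19.6 and 19.8. It held the lowest macrophage sum, 161.4 against 475.9 and 284.1 in those 2 controls. Its fibroblast sum was also the lowest, 289.2 against 1429 and 1294. Not all genes counted above 0 stay there without that library. C1qc was at 37.4 and 31.5 FPKM in those 2 controls and at 24.7, 19.6 and 35.4 in CRS. Col1a1 was at 376.4 and 630.6 FPKM against 503.9, 390.7 and 176.5. Other genes stayed higher in CRS, such as Itgax (0.313 and 0.313 FPKM against 0.368, 0.987 and 0.421) and Fmod (2.11 and 0.956 against 1.92, 4.96 and 2.41). How many genes of each list keep their sign was not counted. Mammary gland genes summed to 0.535 to 2.69 FPKM, and the milk protein gene Csn2 was at most 0.0150 FPKM, on 0 to 2 fragments. The part of these cells in the members' values was not tested.

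Likeness to the members was measured as the root mean square difference, over the 6 libraries, between a gene's centred log2 profile and the median profile of the 10 members. Among 6648 other protein-coding genes of at least 5 FPKM the closest included Rraga (0.139 log2 units), Tmeff1 (0.167), Calm3 (0.169), Kat5 (0.170), Pi4k2b (0.175), Cyb561a3 (0.175) and Becn1 (0.176). None of these 7 is in a fat cell list. The lists' nearest genes were Slc25a1, the citrate carrier, in place 17 (0.2003) and Cd36, the fatty acid transporter, in place 21 (0.203). These differences are smaller than those of the members from their own median profile, which ran from 0.308 for Cidec to 0.912 for Slc2a4. The closest genes were picked as the nearest of 6648 and the members were not picked by closeness. The smaller differences therefore say nothing about the members.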

How the data were processed

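Per the file headers and labels, each deposited file held FPKM of 1 skin library. Per the submitters' processing notes, reads were aligned with HISAT2 to GRCm39; the counter, the annotation and all versions are not given in the sources used here. Per the labels' protocols, Trizol was used for extraction. Symbols, merged exon lengths and principal (APPRIS) transcript lengths came from GENCODE M21, which held 54079 of the 54146 IDs and belongs to an older build, so no gene coordinates are given. FPKM times exon length fell on whole fragments (within 0.05) for 98.1% to 98.3% of values up to 100 fragments, which gave the depth.

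CRS and CON were compared over 28389 genes (mean at least 0.1 FPKM) as log2(FPKM + 0.1) with limma 3.58.1 (R 4.3.3), moderated with a variance trend, two-sided, Benjamini-Hochberg adjusted over all genes, threshold 0.05. On that scale the change of a low gene is understated. Length centring subtracted, in each library, the median deviation of genes of at least 1 FPKM in 20 bins of transcript length. Alternatives were other pseudocounts, filters, scaling, variance model, voom, a replicate block, a skeletal muscle covariate and left-out libraries. The fit was also run on simulated data, drawn independently for each gene and library. Those data lack the shared library deviations described above, so that run cannot tell how the fit behaves with them.

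Members and lists were chosen with earlier results of these data known. Named were all members, the 3 genes of lowest unadjusted p in each of 9 lists and the 8 genes closest in profile, of which 2 genes in all are not reported here; Ucp1, Dlk1, Csn2, Slc25a1, Cd36, Xist and Ddx3y were named after their values were seen. The labels call the samples CON and CRS skin 1 to 3, taken as 1 mouse each from the design of 3 mice a group. Same-numbered libraries did not deviate together (correlations -0.12, 0.062 and 0.087), so they were not taken as pairs. Figures were made with Python 3.11.15 and matplotlib 3.10.9.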

Additional observations from a re-analysis of the deposited data

How the results depend on the processing

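In the 17 alternative fits 0 members and 0 genes passed the adjusted threshold, also with the replicate number as a block (0 genes), and the smallest adjusted p of a member was 0.296 (Retn, without CRS replicate 2, where it was 0.71). No member's sign was stable over all fits, and the cause was not tested. With each library left out in turn, the number of members above 0 ran from 1 (without CRS replicate 3) to 8 (without CRS replicate 1), and it was 3 with CON replicate 1 and CRS replicate 2 both out. The leave-one-out log2 fold changes ran from -0.56 to 0.40 for Adipoq, -0.89 to 0.37 for Lep, -0.052 to 0.58 for Fabp4, -1.11 to 0.56 for Plin1, -0.14 to 0.60 for Cidec, -0.33 to 0.25 for Pparg, -0.27 to 0.53 for Lipe and -0.29 to 0.71 for Retn. They stayed under 0 for Car3 and Slc2a4. With both outlying libraries out, Cidec was at -0.062 and Lipe at -0.38. The skeletal muscle covariate turned Lep to 0.33, Fabp4 to -0.093, Plin1 to 0.56, Retn to -0.38, Car3 to 0.0035, Slc2a4 to 0.18, Prkar2b to 0.015, Adrb3 to 0.22, Kat5 to 0.17 and Cyb561a3 to 0.22. Length centring turned Adipoq to 0.061, Kat5 to 0.074, Pi4k2b to 0.048 and Cyb561a3 to 0.16, and median-ratio scaling turned them to 0.050, 0.023, 0.0080 and 0.12. Leave-one-out values ran from -0.90 to 0.010 for Adrb3, -0.50 to 0.00080 for Tmeff1, -0.57 to 0.19 for Kat5, -0.46 to 0.067 for Pi4k2b and -0.45 to 0.26 for Cyb561a3. The ratios to Adipoq, Plin1 and Cidec ran from -0.21 to 1.06 for Fabp4, -0.28 to 0.40 for Pparg and -0.46 to 1.18 for Retn, each lowest without CRS replicate 1 and highest without CRS replicate 2. The other named genes and ratios kept their sign in all alternatives run. Among the lists' medians, those of the members, of insulin and adipokine signalling, of thermogenic genes and of the 2 mammary gland genes tested turned positive under length centring and median-ratio scaling. Lep and Pparg rest on as few as 89 and 92 fragments in a library, which limits their precision there.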
